A study of Mus musculus with 16 samples.

Results

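The 6 genes followed were Rfx4, Cldn34d, Tmem125, Armh4, Lrrk1 and Cblb. At each, calls of open chromatin in some region differed between mouse haematopoietic stem cells (HSCs) before and after transplantation. Peaks that overlapped between the 16 libraries were merged, those with a call in at least 2 libraries were retained, and each was assigned to the nearest protein-coding gene within 100 kb. This gave 18 regions for the 6 genes, out of 33773 regions in all: 4 at Rfx4, 1 each at Cldn34d, Tmem125 and Armh4, 6 at Lrrk1 and 5 at Cblb. The genes were picked from the calls before and after transplantation in these same libraries, so the difference between those stages is a description here and carries no test. Members had calls in at least 3 libraries, and 4 further regions at these genes had a call in 1 library only, with areas up to 260.9. The farthest region from its gene, 28251 bp, lay well inside the 100 kb limit.

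The assay was ATAC-seq in its Omni-ATAC form, in which a transposase cuts and tags accessible DNA, on 10000 sorted bone marrow HSCs a library. All samples were labelled male, and each of 4 groups had 4 libraries. Young pre libraries came from pools of 3 to 4 B6 donors aged 8 to 12 weeks, and old pre libraries from single B6 donors aged 24 months. For young post and old post, 1000 HSCs of the same donors were given with 300000 helper marrow cells of BJ mice, depleted of Sca-1 cells, to each set of 5 young BJ mice that had been lethally irradiated (whether per mouse or in all is not stated in the labels), and HSCs were sorted from their pooled marrow after 3 months. No gene was altered in any group. Irradiation, helper cells and a BJ host are shared by both post groups and absent from both pre groups, and a donor marker in the post sort is not mentioned in the labels. Each transposition day held libraries of 1 stage, so stage and day cannot be told apart.

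The lists held 5687 to 30520 peaks before and 14008 to 32530 after transplantation, with old pre 4, young pre 4 and old post 4 the shortest in that order. Reads behind them are unknown, and a region without a peak was not called, which is not the same as closed. Post libraries called a region more often than pre libraries in 75.6% of all regions and less often in 4.96%. In bulk libraries, accessibility in fewer cells and lower accessibility in each cell cannot be told apart. HSC marker genes had 49 regions at 9 of 10 genes, and a library called 12.2% to 93.9% of them before and 24.5% to 79.6% after transplantation. Among markers of other cells, 1 of 5 T cell genes (Cd2), 2 of 6 neutrophil and monocyte genes, 4 of 4 erythroid genes and 5 of 6 endothelial and stromal genes had a region. The defining T cell genes Cd3e, Cd4 and Cd8a and the B cell receptor gene Cd79a had none. Over all regions a library called on average 55.8% before and 77.8% after transplantation, 88.5% in young post and 67.1% in old post. The 2 T cell regions were called in 0% to 100% per library before (median 75%) and 50% to 100% after (median 100%), with 100% in young post and 87.5% in old post. For the 3 neutrophil and monocyte regions the ranges were 0% to 33.3% and 33.3% to 100%, with 100% in young post and 58.3% in old post. The 6 erythroid regions had 33.3% to 83.3% before and 33.3% to 100% after (medians 66.7% and 100%), and the 15 endothelial and stromal regions 0% to 80% and 13.3% to 100% (medians 40% and 80%). All 4 of these marker lists thus had a higher median after transplantation, as did HSC markers (60.2% and 74.5%), and their part in the results below was not tested.

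A region that gains or loses accessibility can be a promoter, where transcription starts, or a distal element such as an enhancer inside or near a gene. RFX factors, of which Rfx4 is one, are winged-helix proteins that bind X-box sequences and are known for driving genes of the primary cilium, and Rfx4 itself for brain development. Claudins such as Cldn34d form tight junctions between epithelial cells. Armh4 is a membrane protein reported to restrain Stat3 and mTORC2 signalling, Lrrk1 is a kinase of Rab proteins with a role in osteoclasts and receptor trafficking, and Cblb is a ubiquitin ligase that restrains antigen and cytokine receptor signalling. Tmem125 encodes a transmembrane protein.

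Sequences were available for 4 stretches that lie wholly inside member regions, and they are shown because peaks of at least some libraries reach into them. They are RefSeq sequences of build GRCm38.p6. The first lies upstream of Tmem125, at chr4:118547156-118547455 on the plus strand, around a start site of the lncRNA gene Gm40237. Capitals and small letters alternate between successive units of a tandem repeat of 44 bases.
Gm40237 start site window in the Tmem125 region: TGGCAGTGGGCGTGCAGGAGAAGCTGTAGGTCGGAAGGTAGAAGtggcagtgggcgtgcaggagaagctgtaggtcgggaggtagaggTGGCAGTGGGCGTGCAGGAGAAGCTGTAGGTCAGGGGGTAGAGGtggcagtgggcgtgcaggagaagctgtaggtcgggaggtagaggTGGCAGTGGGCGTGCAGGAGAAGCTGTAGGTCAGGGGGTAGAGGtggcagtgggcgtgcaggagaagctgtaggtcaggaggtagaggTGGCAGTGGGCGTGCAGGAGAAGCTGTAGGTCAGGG
The next 3 are the 250 bases before the annotated start of Armh4 (chr14:49783384-49783633, minus strand), Lrrk1 (chr7:66388342-66388591, minus strand) and Cblb (chr16:52031299-52031548, plus strand). Capitals mark the match to the ETS core AGGAAG, which in Cblb stands on the opposite strand.
Armh4 promoter: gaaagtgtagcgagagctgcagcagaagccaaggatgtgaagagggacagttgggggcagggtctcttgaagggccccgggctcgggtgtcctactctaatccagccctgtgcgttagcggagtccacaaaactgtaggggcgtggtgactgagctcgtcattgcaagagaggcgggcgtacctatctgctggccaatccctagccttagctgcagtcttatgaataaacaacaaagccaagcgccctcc
Lrrk1 promoter: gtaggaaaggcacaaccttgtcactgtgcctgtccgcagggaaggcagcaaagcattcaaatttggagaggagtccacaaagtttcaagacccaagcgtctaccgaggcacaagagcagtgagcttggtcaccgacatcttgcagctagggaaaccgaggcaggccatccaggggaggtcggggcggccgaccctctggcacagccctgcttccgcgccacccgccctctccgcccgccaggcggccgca
Cblb promoter: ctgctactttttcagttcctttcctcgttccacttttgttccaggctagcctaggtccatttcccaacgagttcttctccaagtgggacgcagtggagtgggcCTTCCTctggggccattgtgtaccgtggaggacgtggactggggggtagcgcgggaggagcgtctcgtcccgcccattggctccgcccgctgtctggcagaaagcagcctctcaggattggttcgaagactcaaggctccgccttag

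Every largest peak called at the Armh4, Lrrk1 and Cblb promoter regions reached into the window shown. At Tmem125 the largest peak reached into the repeat window in 4 of 8 pre libraries and 0 of the 3 post libraries with a call, and any peak did in 6 and 0.

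The Gm40237 window matched itself at 96.1% of positions when shifted by 44 bases. It spans 6 whole units, each at most 3 mismatches from the majority unit. Among 32851 RefSeq start site windows of the same 300 bases, 3 (0.00913%) were as repetitive, and the median window reached 33.3%. The 7 start site windows of the 6 genes themselves reached 32.0% to 36.0%. Reads from near-identical units may not be assignable to one unit, and their handling was not stated in the labels. The 250 bases before each start were searched on both strands for short motifs of factor families. The X-box core GTTGCC occurs in 10.4% of all 32851 windows. The AP-1 motif TGANTCA occurs in 6.75%, the GATA motif AGATAA in 9.99% and the Runx motif TGTGGT in 14%. The ETS core AGGAAG occurs in 29.5%, and the E-box CAGCTG in 13.0%. None of these motifs overlaps another in the windows described here. Armh4, Lrrk1, Tmem125 and the first Rfx4 start had no match, Cblb had 1 ETS match 147 bases before its start, the second Rfx4 start 1 Runx match and Cldn34d 1 AP-1 match.

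Regions are numbered in genome order within a gene, and positions are 1-based on mm10 (GRCm38). The lead region of a gene is the one with the largest difference in calls between stages. The 18 regions received 64 of 144 possible calls before transplantation and 98 of 144 after it, or 44.4% and 68.1%, against 55.8% and 77.8% over all regions. By group the calls were 35 of 72 in young pre, 29 in old pre, 57 in young post and 41 in old post. These are 48.6%, 40.3%, 79.2% and 56.9%, against 56.2%, 55.5%, 88.5% and 67.1% over all regions, so the rise in calls summed over the 18 regions was near that of all regions. More post than pre libraries called 14 of the regions (77.8%), near the 75.6% of all regions. Fewer called 3 (16.7%, against 4.96% of all regions), those of Cldn34d, Tmem125 and Armh4. Cblb region 1 was called in all 16 libraries. The median difference was 37.5 percentage points for the 18 regions and 25 for all regions. Because lists after transplantation were mostly longer, each region was also set against the length of each list, by an exact test that gives every library a weight from how readily it called any region. Over the 15182 regions called in 4 to 12 libraries, 1 (0.00659%) passed an adjusted p of 0.05 as higher after transplantation, and 60 (0.395%) as higher before. Rfx4 region 4 was that 1 region, and 3 of the 60 were the lead regions of Cldn34d, Tmem125 and Armh4. The genes were chosen on this same contrast, so for them this is a description only. The Lrrk1 and Cblb lead regions were not past that threshold. Under several alternatives 0 regions passed as higher after transplantation, so Rfx4 region 4 did not pass there. These were Fisher's exact test, stronger peaks, merging by summit and the block of donor pairs. The same held without young pre 1, old pre 2, old post 4 or the donors of the 2 shortest lists. Without any other 1 library, or at a minimum of 4 libraries, 1 region passed as higher after. With each longer list shortened to its 14008 strongest peaks, the split over all regions turned, with 36 higher after and 15 higher before. Of the 18 member regions 10 then had a call in fewer than 2 libraries and dropped out, the lead region of Cblb among them. The lead region of Lrrk1 had 2 post and 0 pre calls.

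**Figure D1:**
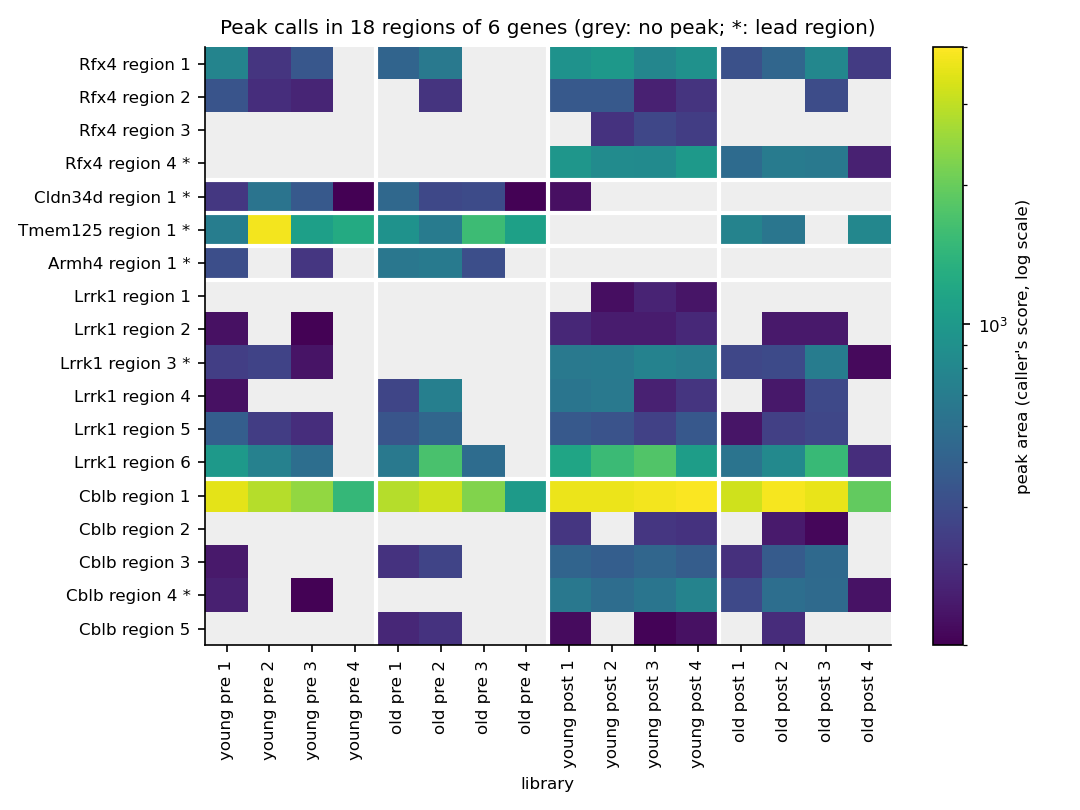
Peak area (the caller's score, log colour scale) of the 18 regions in each of the 16 libraries, with grey for no peak and an asterisk for the lead region of a gene. Rfx4 region 4 is filled in the 8 post libraries and grey in the 8 pre libraries, Cldn34d region 1 shows nearly the reverse, and Cblb region 1 is filled throughout.

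Rfx4 region 4 (chr10:84897754-84898897, 1144 bp) lay within the Rfx4 span, 60.2 kb after the nearer of its start sites and 8.20 kb before the 3′ end of the gene. It was called in 4 of 4 young post and 4 of 4 old post libraries and in none of the 8 before transplantation. Of the 33773 regions it was the single one with 8 calls after and 0 before. Peak area, the caller's summed significance over a peak (the largest where a library had 2 in a region), was 969.6, 845.0, 837.4 and 995.4 in young post 1 to 4. For the old post libraries it was 572.1, 693.9, 671.0 and 261.8. All young post values lay above all old post values, and the lowest belonged to old post 4, whose list was shorter than 6 of the 8 pre lists. Within its own list the peak ranked between the 59.1 and 64.2 percentiles of area in young post and between 16.7 and 53.4 in old post. The 8 summits fell within 31 bp, and 601 bp were common to all 8 peaks. Old post 1, with fewer peaks than 3 pre lists, also called it.

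The other 3 regions of the gene had other patterns of calls. Rfx4 region 1 (chr10:84774403-84775096), 18.6 kb after the first start, was called in 3 young pre, 2 old pre, 4 young post and 4 old post libraries, with areas of 316.1 to 990.6. Region 2 (chr10:84829080-84829627), which also overlaps the lncRNA gene Gm40728, was called in 3, 1, 4 and 1 libraries of these groups. Region 3 (chr10:84897212-84897647), next to region 4, was called in young post 2, 3 and 4 alone, with areas of 311.3, 378.8 and 346.3. None of the 4 regions covered either annotated start of Rfx4. The gene thus had 9 of 32 possible calls before and 24 of 32 after transplantation, or 28.1% and 75%, against 55.8% and 77.8% over all regions.

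**Figure D2:**
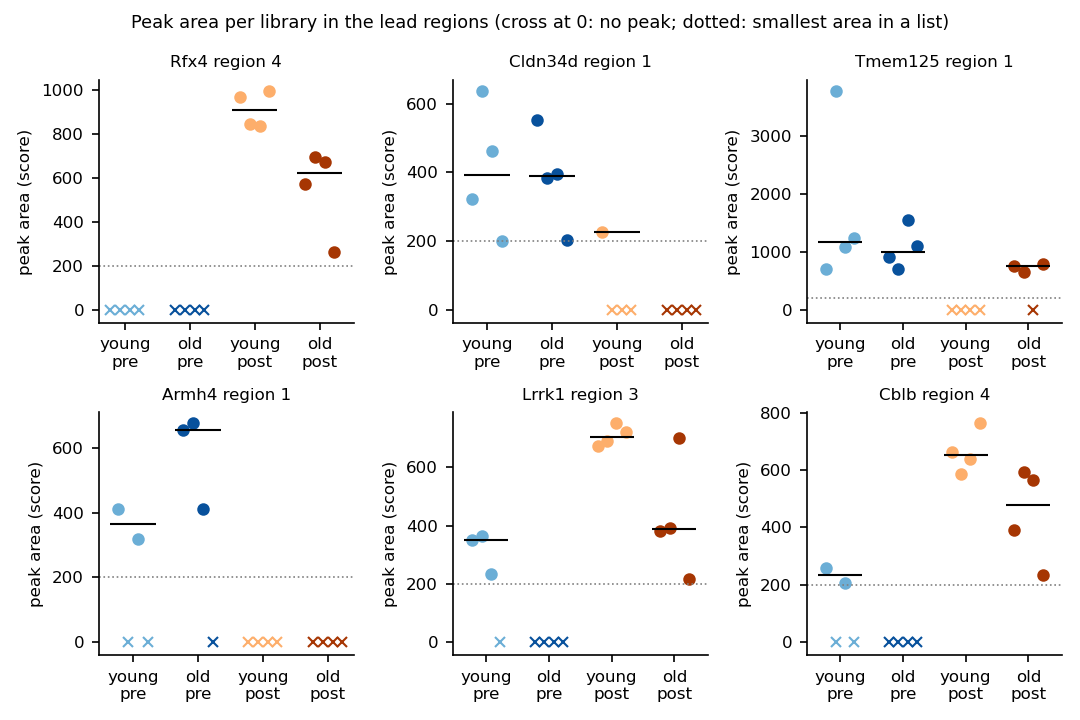
Peak area of the lead region of each gene in every library (points, 4 per group), with the median of the libraries that have a peak as a bar, a cross at 0 for no peak and the smallest area in any list (200) as a dotted line. Young post points of Rfx4 region 4 all lie above the old post points, and the young pre 2 point of Tmem125 region 1, at 3786.2, stands above the rest of its panel.

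Cldn34d had 1 region, the reverse of Rfx4. Cldn34d region 1 (chrX:76598672-76599180, 509 bp), 3.84 kb inside the start of the gene, was called in 4 of 4 young pre and 4 of 4 old pre libraries. After transplantation it was called in 1 of 4 young post and 0 of 4 old post. Areas were 323.5, 636.8, 462.3 and 200.9 in young pre 1 to 4. The old pre libraries 1 to 4 had 553.1, 382.6, 395.9 and 203.7. The values of young pre 4 and old pre 4 sat just above the smallest area in any list, 200. The 1 call after transplantation, in young post 1, had an area of 226.4, at the 6.3 percentile of its list. All 9 summits fell within 3 bp. No other region of the series lost 7 or more libraries, and 107 gained as many.

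Tmem125 had 1 region, 1767 bp wide (chr4:118547015-118548781), 2962 bp upstream of the gene span and overlapping Gm40237, with the repeat shown above at one end. It was called in all 8 libraries before transplantation, in 0 of 4 young post and in 3 of 4 old post. Areas were 708.7, 3786.2, 1085.2 and 1247.2 in young pre 1 to 4. The old pre libraries 1 to 4 had 915.8, 697.7, 1552.7 and 1093.6. In old post 1, 2 and 4 they were 763.6, 645.4 and 797.8, of which 645.4 lay below the lowest pre value and the others inside the pre range. The areas measure different stretches. In young pre 2, young pre 4, old pre 3 and old pre 4 the peak was 1712 to 1767 bp wide and covered the whole repeat window. In the other 7 libraries the largest peak was 986 to 1142 bp wide and started past the window, and in young pre 3 and old pre 1 a second peak, of area 275.7 and 200.6, lay over it. The 11 largest peaks had 971 bp in common, outside the window. In old pre 4, the shortest list, the median area over the 5262 regions called everywhere was 364 and Tmem125 reached 1093.6, whereas in young pre 1 that median was 2263 and Tmem125 had 708.7. Its percentile within a list was 99.1 in young pre 2, 96.5 in old pre 4, 95.0 in young pre 4 and 91.0 in old pre 3, the 4 libraries with the wide peak. Those lists ranked 11, 16, 15 and 13 by length. The percentile was 50.7 in old post 2, 51.9 in young pre 1 and 55.2 in old pre 2, whose lists ranked 7, 8 and 6. Summits of the 13 peaks spanned 1438 bp. Those of the largest peaks lay either at -36 to 0 bp or at 802 to 806 bp from the median summit.

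**Figure D3:**
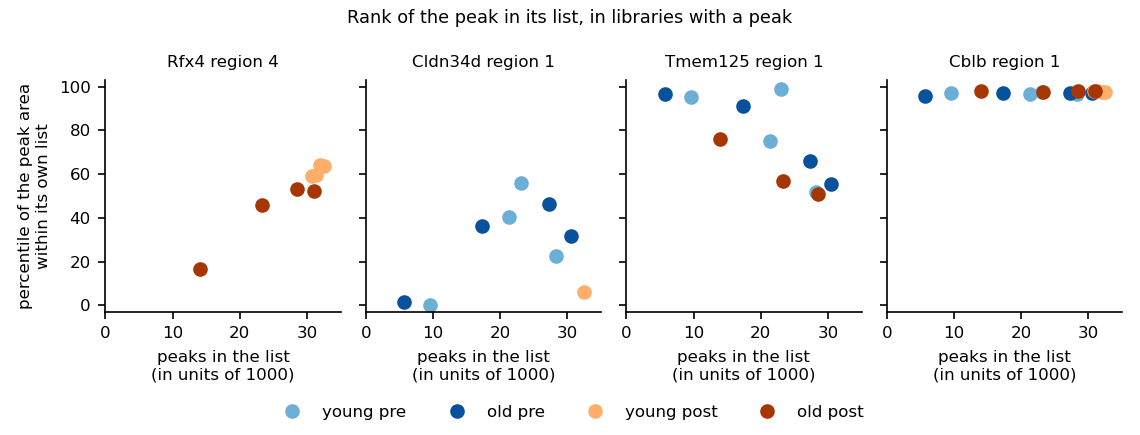
Percentile of the peak area within its own list (vertical axis) against the number of peaks in that list (horizontal axis, in units of 1000) for 4 regions, 1 point per library with a peak, coloured by group. Rfx4 region 4 runs from 16.7 in the shortest post list to 64.2, Tmem125 region 1 stands at 91.0 or more in the 4 pre lists whose peak also covers the repeat, and Cblb region 1 stays between 95.8 and 98.1.

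Armh4 region 1 (chr14:49782866-49783738, 873 bp) covered the promoter of the gene. It was called in 2 of 4 young pre, 3 of 4 old pre and none of the 8 libraries after transplantation. Areas were 410.6 and 320.0 in young pre 1 and 3, against 654.8, 677.3 and 411.4 for old pre 1, 2 and 3. Each old pre value lay above both young pre values, although 411.4 and 410.6 were all but equal. The 3 pre libraries without a call were young pre 2, young pre 4 and old pre 4. Losses of 5 or more libraries, such as those of Armh4 and Tmem125, were seen in 15 regions (0.0444%), and gains of 5 or more in 2394 (7.09%).

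Lrrk1 had 6 regions, all called more often after transplantation, as were 75.6% of all regions. They had 19 of 48 possible calls before and 38 of 48 after (39.6% and 79.2%, against 55.8% and 77.8% over all regions). Lrrk1 region 3 (chr7:66303834-66304544, 711 bp), the lead region, lay 84.2 kb inside the gene. It was called in 3 young pre and 0 old pre libraries and in all 8 post libraries. Areas were 348.8, 365.4 and 233.7 in young pre 1 to 3, 672.5, 689.3, 752.2 and 721.7 in young post 1 to 4, with 380.5, 393.4, 701.9 and 216.7 for the old post libraries. Every young post value exceeded every young pre value, while the old post values overlapped both sets. Its 11 summits fell within 6 bp. The promoter region of Lrrk1, region 6 (chr7:66387749-66389530), was called in 3, 3, 4 and 4 libraries of young pre, old pre, young post and old post, and the 2 pre libraries without it were young pre 4 and old pre 4. Region 5 (chr7:66383992-66384762), 3.88 kb inside the gene, was called in 3, 2, 4 and 3 libraries. Region 4 (chr7:66309240-66310229) was called in 1, 2, 4 and 2. Both regions past the 3′ end were weak where called. Region 2 (chr7:66250003-66250355), 8510 bp beyond the gene, had areas of 203.4 to 280.9 and calls in 2, 0, 4 and 2 libraries, and region 1 (chr7:66230238-66230805) had areas of 222.4 to 270.0 in young post 2, 3 and 4 alone.

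Cblb had a strong promoter called everywhere and weaker regions inside the gene. Cblb region 1 (chr16:52030917-52032660, 1744 bp) covered the promoter shown above and was called in all 16 libraries. Areas were 3549.7, 2876.1, 2462.8 and 1465.8 in young pre 1 to 4, 2864.6, 3227.2, 2262.7 and 1027.2 across old pre, 3643.4, 3678.5, 3778.3 and 3932.2 in young post 1 to 4, and 3206.3, 3821.5, 3640.4 and 1942.4 across the old post libraries. The areas were lowest in the 3 shortest lists, while the percentile stayed between 95.8 and 98.1 in all 16. Cblb region 4 (chr16:52144626-52145207, 582 bp), the lead region, lay 114 kb after the start. It was called in young pre 1 and 3, with areas of 259.0 and 204.3, in 0 of 4 old pre libraries and in all 8 post libraries. After transplantation the areas were 662.6, 585.1, 638.5 and 763.0 in young post 1 to 4, with 389.7, 591.8, 564.5 and 232.7 for the old post libraries. Only the old post 4 value fell among the young pre values. Gains of 6 or more libraries were seen in 753 regions (2.23%). Regions 2 (chr16:52060978-52061484), 3 (chr16:52081824-52082337) and 5 (chr16:52181926-52182337) were called in 0, 3 and 2 libraries before and 5, 7 and 4 after transplantation, with areas of at most 554.8.

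**Figure D4:**
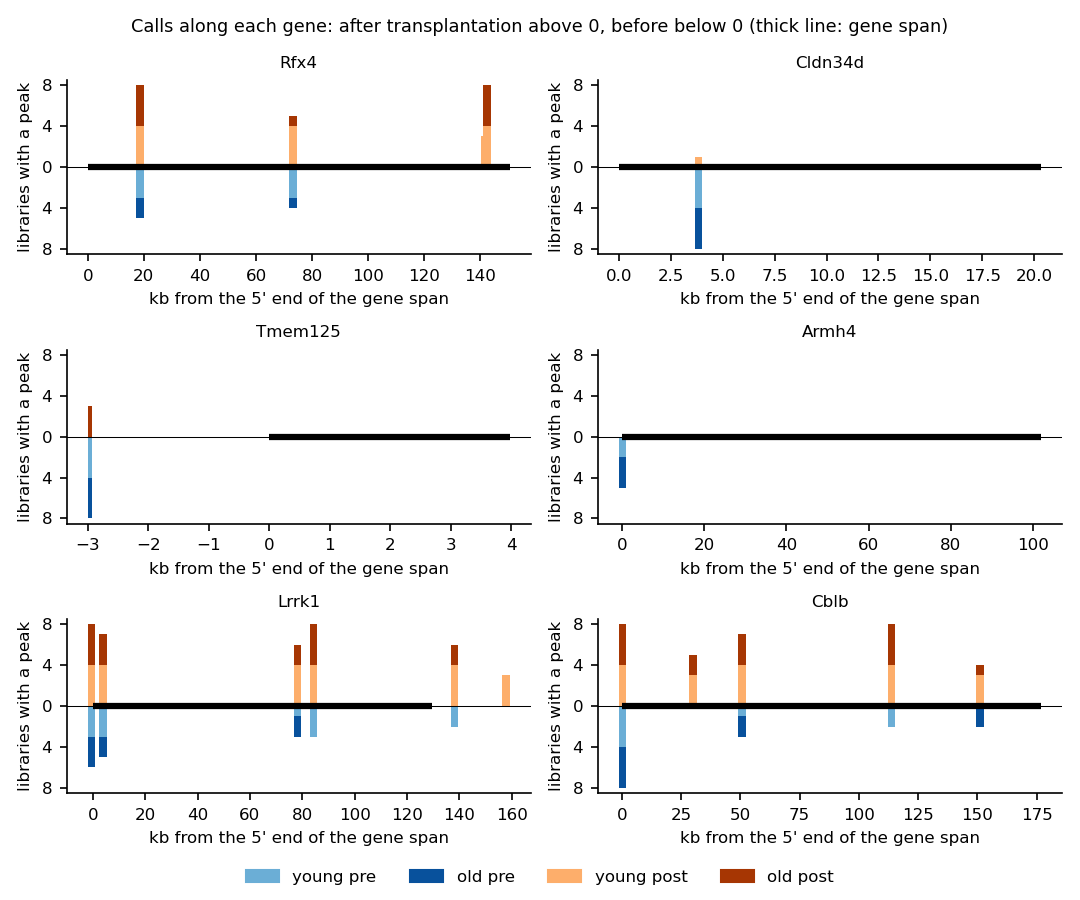
Number of libraries with a peak in each region (vertical axis, post above 0 and pre below 0, coloured by group) against distance from the 5′ end of the gene span (horizontal axis, kb), with the gene span as a thick line. The Cblb promoter reaches 8 on both sides, Rfx4 region 4, beside the shorter bar of region 3, reaches 8 above and 0 below, and the Armh4 promoter has a bar below 0 only.

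**Figure D5:**
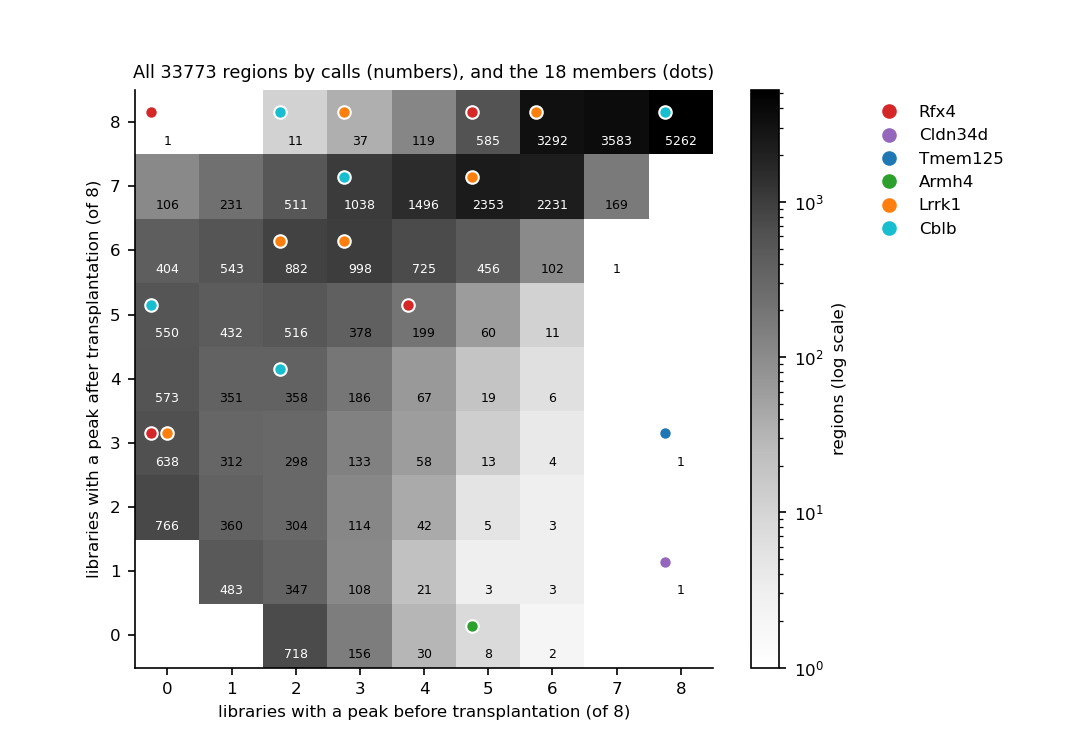
All 33773 regions by the number of pre libraries (horizontal axis) and post libraries (vertical axis) with a peak, with the number of regions in each square on a log grey scale and the 18 member regions as dots coloured by gene. Rfx4 region 4 is alone in the upper left square, and the dots of Cldn34d and Tmem125 are alone in theirs at 8 pre libraries.

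As the plot of joint calls shows, 5264 regions were called in all 8 pre libraries. All of them but Cldn34d region 1 and Tmem125 region 1 were called in all 8 post libraries too. The 2 shortest pre lists, young pre 4 and old pre 4, called the same 3 of the 18 regions: Cldn34d region 1, Tmem125 region 1 and Cblb region 1. The number of member regions called ran from 3 to 13 in pre and from 7 to 15 in post libraries, and the lowest post value, 7, was in old post 4, the shortest post list.

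The genes were chosen by stage, not by age, and age was tested within each stage by the same weighted exact test, two-sided, with Benjamini-Hochberg adjustment over all regions called in 3 to 5 of the 8 libraries. Each library of a group came from its own donor or donor pool. The p-values rest on the library weights and the number of calls, and do not measure the spread between donors. Before transplantation, 0 of the 7 member regions in that range passed, and 0% of the 9407 regions tested passed. Before adjustment 215 of the 9407 were under 0.05, and Fisher's exact test also called 0, with a smallest p of 0.143. Lrrk1 region 3, called in 3 young pre and 0 old pre libraries, had the smallest p of the 7 (exact p = 0.00337, adjusted p = 0.360). On day 2, which held both ages, 3 of 3 young libraries and 0 of 2 old libraries had the peak. Those young lists held 28298, 23044 and 21346 peaks and the old lists 17299 and 5687. Age and list length therefore cannot be told apart on that day. Old pre 1 and 2, transposed on day 1 and also without the peak, had 27302 and 30520 peaks. Rfx4 region 2 was called in 3 young pre and 1 old pre libraries (exact p = 0.0665, adjusted p = 0.999), and Armh4 region 1 in 2 and 3 (exact p = 0.229, adjusted p = 0.999).

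After transplantation, 1 of the 6 member regions tested passed, Tmem125 region 1, and over all 5163 regions 24 passed (0.465%), all of them higher in old. That count was 20 without old post 4 and 2 to 5 without any other 1 library. Tmem125 region 1 was called in old post 1, 2 and 4 and in no young post library (exact p = 1.7e-04, adjusted p = 0.0365). Young post lists held 30784 to 32530 peaks and old post lists 14008 to 31003. Old post 1, 2 and 4, the libraries with the call, had the shortest post lists, at 23287, 28498 and 14008 peaks. Old post 3, without the call, had 31003. Age and list length therefore cannot be told apart for this region. The call was lost when any 1 of young post 1 to 4 was left out (adjusted p = 0.164, 0.107, 0.123 and 0.151). It was also lost when peaks were limited to the stronger 50% (adjusted p = 0.0655) and with Fisher's exact test (adjusted p = 0.271). Fisher's exact test gives p = 0.143 for these counts, so it could not call this region. Over the 9 alternatives with a value the adjusted p ran from 3.4e-05 to 0.271. Without old post 1, 2 or 4, with shortened lists or with peaks merged by summit, the region was outside the range of counts that could be tested. Old post 1 and 2 were transposed on day 4, which held no young library. On days 5 and 6, which held both ages, 1 of 2 old libraries and 0 of 4 young libraries had the peak, again outside that range. The other 5 regions tested after transplantation, Rfx4 regions 2 and 3, Lrrk1 region 1 and Cblb regions 2 and 5, had adjusted p = 1.00. Rfx4 region 3 and Lrrk1 region 1 were each called in 3 young post and 0 old post libraries, the same 3 young libraries in both (exact p = 0.471).

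Whether the change with transplantation differed by age was tested by exact permutation of the donors' changes. Over 28230 regions, 16 of them members, 0 passed (0%). Before adjustment 351 were under 0.05, and the design allows no p below 0.029. Tmem125 region 1 changed by -1 library in old and -4 in young donors (exact p = 0.143, adjusted p = 1.00). Lrrk1 region 3 gained 4 libraries in old and 1 in young donors (exact p = 0.143). Cblb region 5 went the other way in the 2 ages, by -1 in old and 3 in young donors (exact p = 0.114), and Cblb region 4 gained 4 and 2 (exact p = 0.429).

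Peak area could be compared between ages where all libraries had a peak, after quantile normalization of log2 area between libraries, with limma. Over the 5262 regions called in all 16 libraries, 49 (0.931%) differed by age before transplantation and 0 (0%) after, where 254 had an unadjusted p under 0.05. Cblb region 1 differed by 0.00 ± 0.12 log2 units (old minus young, SE, limma adjusted p = 0.999) before and by 0.16 ± 0.12 (adjusted p = 0.842) after transplantation. A second comparison, added after the data had been seen, took the regions called in all 8 libraries of a stage and fitted that stage alone. Before transplantation these were the same 5262 regions with Cldn34d region 1 and Tmem125 region 1 added. It called 0 of these 5264 (0%, 258 with an unadjusted p under 0.05), so the 49 calls were not seen when the pre libraries were fitted alone. Tmem125 region 1, whose peaks differ in extent as described, then differed by -0.24 ± 0.73 (adjusted p = 1.00), and its log2 area had an SD of 1.34 in young pre and 1.29 in old pre. Cldn34d region 1 differed by 0.15 ± 0.24 (adjusted p = 1.00). After transplantation 10 of 12890 passed (0.0776%), 0 of them members. Of the 10, 7 were higher in old and 3 in young, and the count ran from 2 without young post 3 to 52 without old post 3, of which 15 were higher in old and 37 in young.

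Rfx4 region 4, whose raw areas were all higher in young post, had normalized log2 areas of 9.50 ± 0.09 (SD, n = 4) in young post and 9.33 ± 0.19 in old post. The difference was -0.16 ± 0.10 (SE, limma adjusted p = 0.446), within the spread between libraries. Lrrk1 region 3 differed by -0.26 ± 0.17 (adjusted p = 0.456) and the Lrrk1 promoter by -0.31 ± 0.23 (adjusted p = 0.506). Cblb region 4 differed by -0.01 ± 0.11 (adjusted p = 0.968) and the Cblb promoter by 0.16 ± 0.09 (adjusted p = 0.405). Rfx4 region 1 differed by -0.18 ± 0.18 (adjusted p = 0.613).

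The genes around these 6 in their families and pathways were counted by the same stage comparison, with the lists chosen with earlier results of these data known. Each list but that of cilium genes also holds a member gene, itself chosen on this contrast. The passes given below are all of member regions, so they are a description only. The RFX family had regions at 9 of 10 genes, 28 in all, of which 1, Rfx4 region 4, passed as higher after transplantation and 0 as higher before. The median difference was 25 points, that of all regions. Rfx3, a cilium regulator, had 1 region, called in all 16 libraries, Rfx2 had 17 of 48 possible calls before and 35 after, Rfx7 had 14 and 27 of 32, and Rfx6 had no region. Cilium genes known as RFX targets had 34 regions at 17 of 20 genes, 0 of them past the threshold in either direction, and a median of 25 points. Of 10 claudin 34 genes, Cldn34c1 was the other one with a region, called in 7 of 8 pre and 8 of 8 post libraries. Cbl proteins and their signalling partners had 106 regions at 25 of 25 genes, with 0 past the threshold and a median of 25 points. Cbl itself had 10 of 16 possible calls before and 14 after, and Grb2, an adaptor of receptor kinases, 35 and 53 of 72. Lrrk and endosomal Rab genes had 44 regions at 14 of 18 genes, 0 past the threshold and a median of 12.5 points. The mTORC2 and Il6-Stat3 genes had 82 regions at 14 of 14 genes and a median of 25 points, and the 1 past the threshold, higher before transplantation, was Armh4 region 1.

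The regions most like each lead region were found by the number of the 16 libraries in which calls differed, ties going to the larger mean −log10 q. No region had the same calls as any of the 6. Rfx4 region 4 had 106 regions at a distance of 1 library, led by those of Capn1, a calpain protease gene, Tgm4 and Camkmt, all called in 7 post and 0 pre libraries. For Tmem125 the nearest was a region of Gm15319 at 2 libraries, followed by the axon guidance gene Sema5a and the ligand gene Wnt5a at 4. Cldn34d was followed at 3 libraries by the imprinted gene Peg3, Mtus1 and Spns2, a sphingosine phosphate transporter. Peg3 came first for Armh4 too, at 1 library, with Irx2 and Acaa1b. The Lrrk1 lead region was nearest to regions of Rin3, Iscu and Bglap at 1 library, and that of Cblb to Lrrk1 region 3 itself, Nenf and Rassf4 at 1 library.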

How the data were processed

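Peak lists of 16 libraries were used, deposited without headers, each called on its own library. Per the submitters' processing notes, peaks came from Genrich on mm10 after trimming with Trim Galore and cutadapt. The aligner is not given in the sources used here. Column 7 of the deposited lists is a score, the peak area, with a smallest value of about 200, and column 9 is the −log10 q of the summit in that library, both as the authors deposited them and not scaled between libraries. Peaks on unplaced scaffolds (393 of 387029, 0.102%) were left out. No read counts were used, so depth is unknown.

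Overlaps of 1 bp merged peaks. Members and lists were chosen with earlier results of these data known. All regions of the 6 genes are described. Other genes named for likeness are up to 3 per lead region, by the smallest number of differing calls. The weighted exact test uses Rasch library weights over all regions. It was tried on data simulated from that same model, which cannot show how well the weights hold in these libraries. Areas were compared with limma 3.58.1 in R 4.3.3, donor as a random block where both stages were fitted (consensus correlation 0.173). Python 3.11.15, numpy 2.4.6, pandas 2.3.3, scipy 1.17.1 and matplotlib 3.10.9 served the rest. Gene spans, starts and sequences are RefSeq, and a genome was not used, so peak sequence outside start site windows is not shown.

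Pre and post libraries of an age and number share donors by the series design, and their deviations from group means correlated at -0.008 to 0.407. Old and young libraries share a number without a stated link, with correlations of -0.061 to 0.398. Alternatives were Fisher's test, stronger peaks, shortened lists, merging by summit, a minimum of 4 libraries, blocks, shared days and leaving out each library. The result of 1 marker list is not reported here.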

Additional observations from a re-analysis of the deposited data

How the results depend on the processing

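No member region past a threshold changed direction under the alternatives run, but the uncalled age difference in Tmem125 area before transplantation ran from -0.79 to 0.19 without 1 library. Of 342 recomputed member call differences, 326 moved by less than the spread between libraries and 16 by more. Of 146 age tests of members, 140 kept their side of the threshold, and the 6 that lost it were all of Tmem125 region 1. All 117 area tests of members kept theirs. With stronger peaks or shortened lists, a region left with a call in fewer than 2 libraries was dropped and counted as 0 in these differences. With the stronger 50% of peaks, Cldn34d region 1 was dropped, though young pre 2 kept its peak, at the 55.9 percentile of its list. Rfx4 region 4 was called in 6 post and 0 pre. With lists shortened to 14008 peaks, Cldn34d region 1 had 5 pre and 0 post calls, and Rfx4 region 4 had 7 post and 0 pre. Tmem125 region 1 then had 8 pre and 2 post calls, Armh4 region 1 had 3 and 0, and Lrrk1 region 3 had 0 and 2. Cblb region 4 was dropped, though old post 4, whose list was not shortened, kept its peak of area 232.7. Also dropped were Cblb regions 2, 3 and 5, Lrrk1 regions 1, 2, 4 and 5 and Rfx4 regions 2 and 3. With the stronger 50% of peaks 9 of the 18 regions were dropped.

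Counts over all regions moved more, and the cause was not tested. The balance of directions turned for post against pre with shortened lists, from 1 higher in post and 60 higher in pre to 36 and 15. For post against pre, 61 became 0 with Fisher's exact test, 31 with stronger peaks, 101 at a minimum of 4 libraries and 33 to 71 without 1 library (33, 35, 39, 34 and 34 without young pre 1, young pre 2, old pre 1, old pre 2 and old pre 3). With the replicate block of donor pairs it was 39. All calls with donor pairs, with stronger peaks and without young pre 1 or old pre 2 were higher in pre. For old against young before transplantation, 0 became 1 with stronger peaks. After it, 24 became 0 with Fisher's test, with shortened lists, with summit merging and with shared days, 1 with stronger peaks, and 2 to 20 without 1 library, 20 being without old post 4. With the replicate block by number it was 4. Area calls were 26 to 65 without 1 library in place of 49 before transplantation (27, 29, 26 and 31 without young pre 1, young pre 3, old pre 1 and old pre 3). After it, 0 became 1 with median centring and 0 to 1 without 1 library, 1 being without young post 4. Over regions called in all 8 libraries of a stage, median centring gave 2 in place of 0 before and 2 in place of 10 after, where leaving out 1 library gave 2 to 52. There the balance turned from 7 higher in old and 3 in young to 11 and 20, 5 and 14, 15 and 37, and 8 and 9 without old post 1, 2, 3 or 4, and to 2 and 5 without young post 2.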
